A study of Mus musculus with 2 samples.

Results

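The NF-kappaB transcription factors and the proteins that hold them back were followed as 10 genes: the subunits Rel, Rela, Relb, Nfkb1 and Nfkb2, and the inhibitors Nfkbia, Nfkbib, Nfkbie, Nfkbiz and Bcl3. They were chosen by name, as the gene-probe rows of both scanner files whose gene name column holds 1 of these symbols. This gave 14 probes on 32 spots, of 41174 probes on 43379 spots and 27969 genes on the array. The samples were regulatory T cells (Tregs), the CD4 lineage defined by the transcription factor Foxp3 that keeps immune responses in check, sorted from mice of C57BL\6 background and either lacking the zinc finger transcription factor Bcl11b or wild type. Deletion of the floxed gene (Bcl11bF/F) was driven by Cd4Cre, which acts in developing T cells, in mice with a Foxp3-GFP reporter, or by Foxp3Cre, which acts once Foxp3 is on. On the Cd4Cre array, Bcl11b-deficient Foxp3-GFP Tregs were set against wild-type Foxp3-GFP Tregs, and on the Foxp3Cre array, Bcl11b-deficient Tregs against wild-type Tregs, whose labels name no reporter. Each wild-type pool came from 3 mice. The labels used here do not name the Cre, which was assigned to each array from the reporter wording. They also do not give the number of deficient mice, the ages, or whether the wild-type mice carried Cre.

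NF-kappaB proteins bind DNA as dimers and control genes of inflammation, cell survival and lymphocyte activation. In resting cells they are kept in the cytoplasm by IkB proteins, which are degraded when antigen receptors, costimulatory receptors or cytokine receptors activate the IkB kinases. Several IkB genes are themselves induced by NF-kappaB, which closes a feedback loop. In the T cell lineage the pathway is known for its part in Treg development, where c-Rel, the product of Rel, binds the Foxp3 locus.

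There was 1 two-colour Agilent array per Cre system, with deficient RNA in Cy5 and wild-type RNA in Cy3, so no ratio has a replicate check, and dye bias runs the same way on both. Ratios are log2 values of deficient over wild type after background correction and loess normalization within the array; signals are log2 brightness of 1 probe in 1 channel, and are not compared between probes. No spot was saturated, and from 20689 to 24439 gene-probe spots in a channel were well above background. Repeated spots of 1 probe had a median SD of the ratio of 0.063 with Cd4Cre and 0.074 with Foxp3Cre, which covers spotting error only. The error given with a ratio is that of the scanner software's single-array error model. Bcl11b had a signal of 13.09 in deficient and 15.55 in wild-type cells on the Cd4Cre array (ratio -2.46, error 0.30), and 13.14 against 14.95 on the Foxp3Cre array (ratio -1.82, error 0.26). A second, dimmer Bcl11b probe read -1.19 and -0.32, and since the deleted bases are not given in the sources used here, these values do not check the deletion itself. Markers of the sorted cells differed between the arrays. A list of 7 markers of Tregs and T cells (Foxp3, Il2ra, Ctla4, Ikzf2, Tnfrsf18, Cd4 and Cd3e) had a median of -1.99 with Cd4Cre and -0.05 with Foxp3Cre. Cd4 and Cd3e are not particular to Tregs. Cd3e is also among the pan T cell markers below, and its ratio is the Foxp3Cre median. Foxp3, the defining marker, had a signal of 8.93 in deficient and 12.50 in wild-type cells with Cd4Cre, and 9.82 in deficient and 10.02 in wild-type cells with Foxp3Cre. Its ratio was -3.57 with Cd4Cre and -0.20 with Foxp3Cre, that of Il2ra -2.86 and -0.37 (its other probes reached -0.97 and 0.55), and Ctla4 -3.48 and 1.22. The 7 pan T cell markers read from -0.93 to -0.15 with Cd4Cre and from -1.35 to 0.33 with Foxp3Cre. The 8 myeloid markers, all detected, had a median of 3.62 (from -1.50 to 7.02) with Cd4Cre and 0.93 (from -1.20 to 2.33) with Foxp3Cre. The 4 NK cell markers had medians of 3.12 and 0.68, and the 2 CD8 T cell markers 1.88 and 0.05. Of 6 B cell markers, 5 were detected on each array, with medians of 0.88 and -0.14, and the defining marker Pax5 was not well above background in any channel. Salivary gland genes, all 6 detected on the Foxp3Cre array, read from -4.58 to -3.20 there, and 3 of them were detected on the Cd4Cre array (from 0.27 to 1.03). In such pools fewer cells of a type and less RNA per cell cannot be told apart, and the part of these markers in the ratios below was not tested.

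Probe sequences are shown for Rela, which was at least 2-fold lower on both arrays, for Nfkbia, whose direction turned with the normalization, and for Nfkb1, whose probes disagree. Rela and Nfkbia are given as the 60 bases of the array's oligonucleotide, and the 4 probes of Nfkb1, which read differently, by their first 30 bases, all 5′ to 3′ in lower case, with no base singled out. Positions are those of the files, on mm9.
Rela, chr19:5647136-5647195, plus strand: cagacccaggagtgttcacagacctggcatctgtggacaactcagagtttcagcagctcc
Nfkbia, chr12:56590945-56591440, minus strand: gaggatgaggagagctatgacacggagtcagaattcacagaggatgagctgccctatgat
Nfkb1 by M57999, chr3:135247710-135247771, minus strand: tgaaaatagtattttccccgttttatgcat
Nfkb1 by BC050841, chr3:135275144-135275203, minus strand: attgctgccaaacttatatgagacttagac
Nfkb1 by AK048506, chr3:135274175-135274234, minus strand: actcgagagtctcagattgttctagggttt
Nfkb1 by AK036827, chr3:135281195-135281254, minus strand: atgtattacagtaaattagaatatctcaca
The Nfkbia probe covers a genomic span of 496 bases, more than its own length, so its bases lie on both sides of a gap in the alignment. The files give no exon or UTR annotation for these positions. The Nfkb1 probes all lie on the minus strand, and those named by cDNA clones lie 26.5 to 33.5 kb from the M57999 probe, toward the start of the gene.

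Rela was the only member read at least 2-fold lower on both arrays by its brightest probe. It encodes p65, the main transactivating subunit of the classical pathway. The brighter of its probes, at chromosome 19 from 5647632 to 5647691, had a signal of 13.29 in deficient and 14.48 in wild-type cells on the Cd4Cre array, a ratio of -1.19 (2.28-fold lower, error 0.23). With Foxp3Cre the same probe had 12.30 in deficient and 13.85 in wild-type cells, a ratio of -1.55 (2.93-fold lower, error 0.24). The other Rela probe, whose sequence stands first above, was printed at 10 places on the array. It averaged -1.31 ± 0.05 with Cd4Cre and -1.70 ± 0.03 with Foxp3Cre (SD over 10 spots, a measure of spotting error). With loess both Rela probes gave at least 2-fold lower values in both deficient pools. With median centring the brighter one read -0.62 with Cd4Cre, within 2-fold, and -1.05 with Foxp3Cre, and the second -1.35 and -1.69. Spot by spot, with loess, the second probe read from -1.39 to -1.24 with Cd4Cre and from -1.75 to -1.66 with Foxp3Cre. A ratio at or past 2-fold below 0 on both arrays was seen in 4.56% of all genes detected on both, and of the 9 members detected on both, only Rela was, read from its brightest probe.

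Relb, the partner subunit of the noncanonical pathway, was read by 1 probe at chromosome 7 from 20191722 to 20191781. Its signal was 13.71 in deficient and 14.08 in wild-type cells on the Cd4Cre array, a ratio of -0.37 (error 0.21). In the Foxp3Cre comparison it was 12.43 in deficient and 13.51 in wild-type cells, a ratio of -1.08 (2.11-fold lower, error 0.22). The Foxp3Cre ratio was the lower of the pair, and it was within 2-fold with median centring in place of loess (-0.59) or when the trend with probe base composition was removed (-0.71).

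Nfkb2, which encodes p100, the precursor of p52 and an inhibitor of RelB, differed less. Its probe, at chromosome 19 from 46386146 to 46386285, had signals of 11.85 in deficient and 12.33 in wild-type cells on the Cd4Cre array (ratio -0.48, error 0.21). With Foxp3Cre they were 10.65 and 11.24, again deficient before wild type (ratio -0.59, error 0.21). Neither ratio reached 2-fold.

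Rel, the gene of c-Rel, was the only member near background. On the Cd4Cre array its only probe, at chromosome 11 from 23641729 to 23641743 by the file's alignment, was not well above background in either channel (signals of 7.42 in deficient and 7.36 in wild-type cells), so no fold is given. On the Foxp3Cre array it was well above background in both, at 8.70 in deficient and 7.99 in wild-type cells, a ratio of 0.70 (1.63-fold higher, error 0.35). It was the only member above 0 on that array, and the scanner software's own ratio put it at 1.09, past 2-fold. The alignment in the file covers 15 of the probe's 60 bases.

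**Figure D1:**
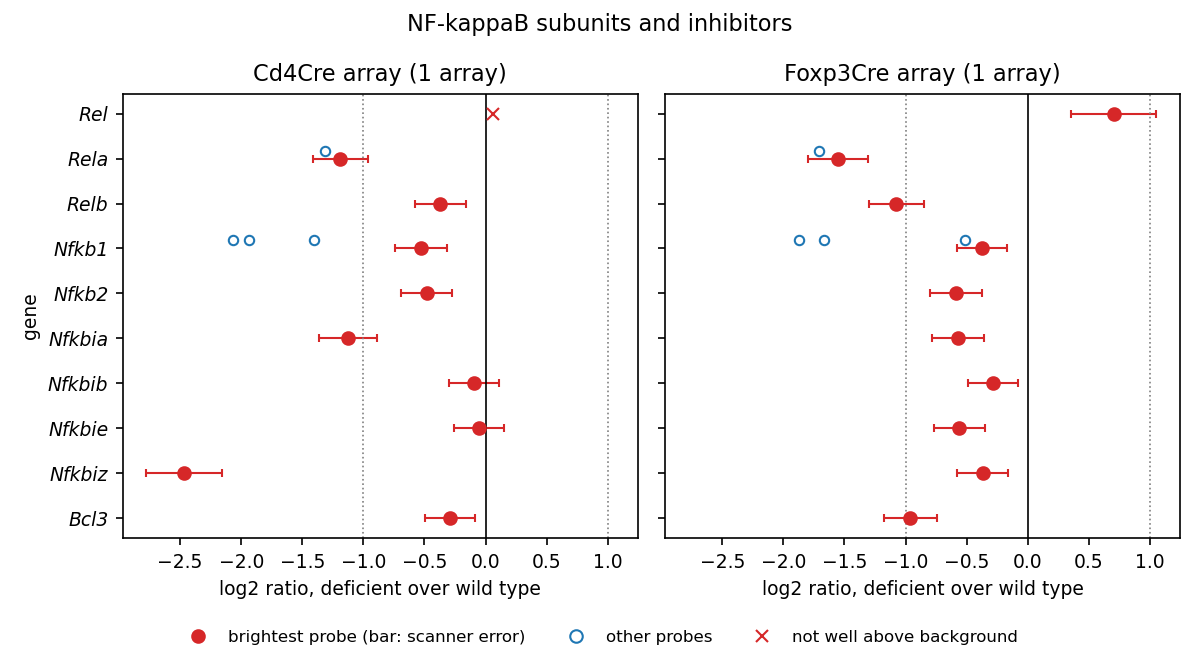
Log2 ratio of Bcl11b-deficient over wild-type Tregs (x axis) for each member (y axis) on the Cd4Cre array (left) and the Foxp3Cre array (right), with 1 array each. Filled points are the brightest probe with the scanner software's error, open points are other probes of the gene, and the cross marks a probe not well above background; dotted lines mark 2-fold. Rela lies past the lower line on both arrays, Nfkbiz at -2.47 only on the Cd4Cre array, and the Nfkb1 probes spread over 1.54 and 1.49.

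Nfkb1, the gene of p105 and its product p50, had 4 probes that disagreed. The brightest over both arrays, made against the sequence M57999, was printed at 10 places and read -0.53 ± 0.03 on the Cd4Cre array (SD over 10 spots) and -0.37 ± 0.05 on the Foxp3Cre array (SD over 9 spots). Its signal was 10.88 in deficient and 11.41 in wild-type cells on the Cd4Cre array, and 13.11 in deficient and 13.49 in wild-type cells on the Foxp3Cre array. Neither ratio reached 2-fold, and the spread over its spots covers spotting error only. The scanner software's error was 0.21 for either ratio. With median centring the probe read -0.46 with Cd4Cre and 0.17 with Foxp3Cre, so the sign of its Foxp3Cre ratio turned with the normalization.

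The probes made against cDNA clones read lower. The BC050841 probe had a signal of 11.81 in deficient and 13.75 in wild-type cells on the Cd4Cre array, a ratio of -1.94, and 9.73 against 11.60 on the Foxp3Cre array, a ratio of -1.87. The AK048506 probe had ratios of -2.07 and -1.67 on the Cd4Cre and Foxp3Cre arrays, and the AK036827 probe -1.40 and -0.51. All of these were well above background in every channel. Of the clone probes, all 3 were at least 2-fold lower with Cd4Cre and 2 with Foxp3Cre, so whether Nfkb1 counts as 2-fold lower depends on the probe. The mean over its probes was -1.48 with Cd4Cre and -1.11 with Foxp3Cre. What transcripts the clone probes read was not tested. Each probe's own signal also differed between the arrays: in wild-type cells the M57999 probe was at 11.41 on the Cd4Cre and 13.49 on the Foxp3Cre array, and the BC050841 probe at 13.75 and 11.60.

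**Figure D2:**
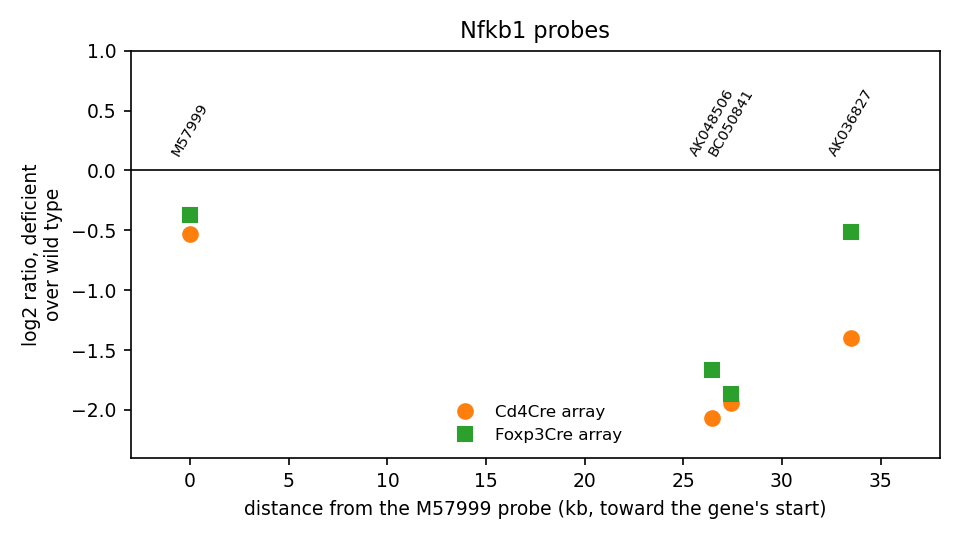
Log2 ratio of deficient over wild-type cells (y axis) for the 4 Nfkb1 probes by their distance in kb from the M57999 probe (x axis), with circles for the Cd4Cre array and squares for the Foxp3Cre array. The M57999 probe reads -0.53 and -0.37, and the pair at 26.5 and 27.4 kb reads from -2.07 to -1.67.

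Among the inhibitors, Nfkbiz had the lowest ratio of any member. Nfkbiz encodes IkB-zeta, an atypical nuclear IkB protein that is induced by cytokine and Toll-like receptor signals and can activate genes with p50. Its probe, at chromosome 16 from 55812091 to 55812150, had a signal of 11.72 in deficient and 14.18 in wild-type cells on the Cd4Cre array, a ratio of -2.47 (5.53-fold lower, error 0.31). On the Foxp3Cre array it had 11.95 in deficient and 12.32 in wild-type cells, a ratio of -0.37 (error 0.21). The deficient pools stood close to each other in this gene, and the wild-type pool of the Cd4Cre array stood above the other 3 channels. The ratios of the arrays differed by -2.10, a difference with no replicate behind it. It stayed past 2-fold on the Cd4Cre array under every alternative tried, from -2.49 to -2.11.

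Nfkbia encodes IkB-alpha, the classical inhibitor that NF-kappaB induces and that shuts off the response. Its signal was 16.16 in deficient and 17.28 in wild-type cells on the Cd4Cre array, a ratio of -1.13 (2.18-fold lower, error 0.24). In the Foxp3Cre comparison it was 15.72 in deficient and 16.28 in wild-type cells, a ratio of -0.57 (error 0.21). Both ratios turned sign, to 0.18 and 0.61, when each array was centred on its median without loess. The loess step moved this bright probe by -1.30 with Cd4Cre and -1.18 with Foxp3Cre, more than any other member, so its direction rests on the normalization.

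Bcl3, which encodes a nuclear IkB protein that partners p50 and p52, read -0.29 on the Cd4Cre array (14.22 in deficient and 14.51 in wild-type cells, error 0.20) and -0.96 on the Foxp3Cre array (12.74 in deficient and 13.70 in wild-type cells, error 0.22). Its probe lies at chromosome 7 from 20393862 to 20393921. The Foxp3Cre value was just short of 2-fold, at 1.95-fold lower.

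Nfkbib, the gene of IkB-beta, and Nfkbie, the gene of IkB-epsilon, were nearest to 0 on the Cd4Cre array. Nfkbib had signals of 13.52 in deficient and 13.61 in wild-type cells there (ratio -0.10, error 0.20), and 12.44 in deficient and 12.72 in wild-type cells on the Foxp3Cre array (ratio -0.28, error 0.21). Nfkbie had 12.74 in deficient and 12.79 in wild-type cells on the Cd4Cre array (ratio -0.05, error 0.20), and 12.04 in deficient and 12.60 in wild-type cells on the Foxp3Cre array (ratio -0.56, error 0.21). On the Cd4Cre array both ratios were smaller than their errors. The Nfkbib probe lies at chromosome 7 from 29544167 to 29544848 and the Nfkbie probe at chromosome 17 from 45700000 to 45700059.

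**Figure D3:**
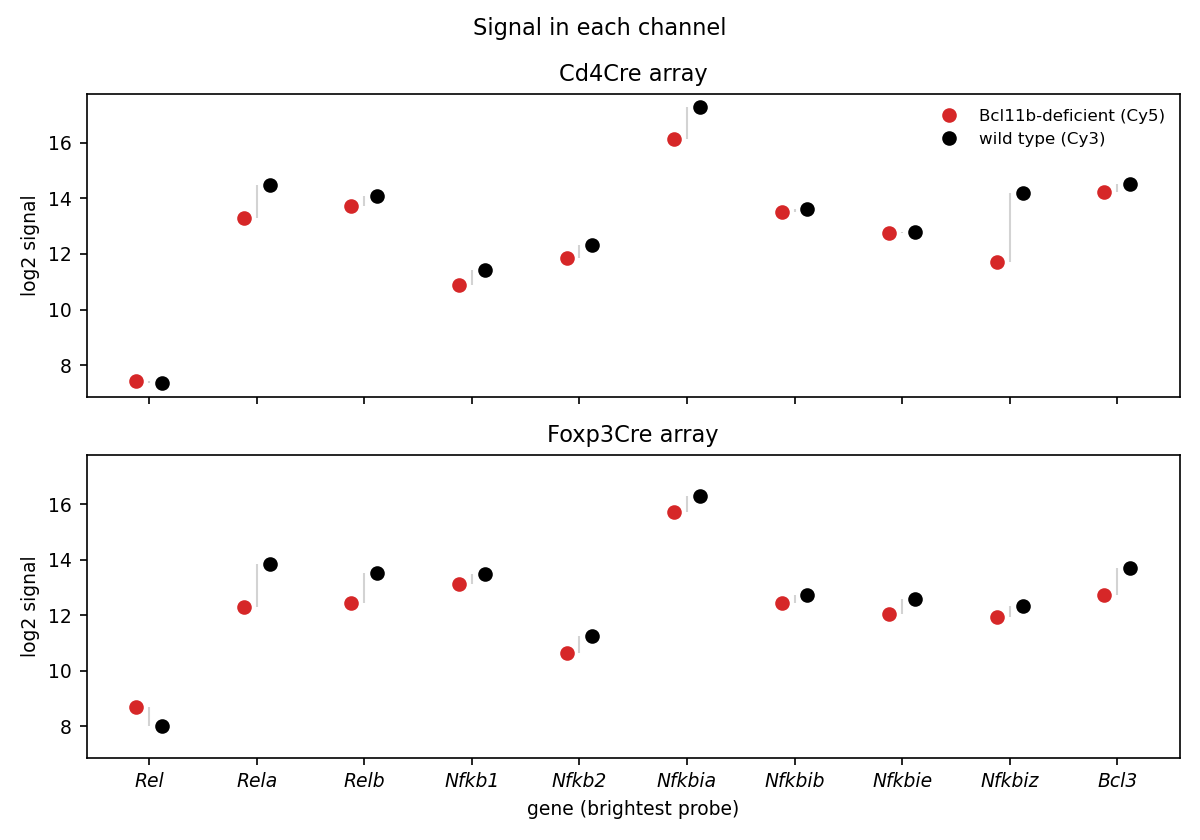
Log2 signal (y axis) of each member's brightest probe (x axis) in Bcl11b-deficient (red) and wild-type cells (black), on the Cd4Cre array (top) and the Foxp3Cre array (bottom), 1 value per channel. The widest gap is that of Nfkbiz on the Cd4Cre array, 11.72 in deficient and 14.18 in wild-type cells, and levels of different genes are not comparable.

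Counted by gene, 3 of the 9 members detected on the Cd4Cre array were at least 2-fold lower (Nfkbiz, Rela and Nfkbia), where 10.6% of all detected genes were, and none was at least 2-fold higher, where 11.4% of all genes were. All 9 lay below 0, with a median of -0.48 against -0.05 over all detected genes. With Foxp3Cre, 2 of 10 were at least 2-fold lower (Rela and Relb), against 11.5% of all genes, and none at least 2-fold higher, against 2.94%. There 9 of 10 lay below 0, with a median of -0.56 against -0.08 over all genes. Among the subunits, 4 detected on the Cd4Cre array had a median of -0.50, and 5 on the Foxp3Cre array one of -0.59. The 5 inhibitors had medians of -0.29 and -0.56. All 9 members detected on both arrays were below 0 on both, as were 37.9% of all genes. The share of all genes below 0 on a single array is not given, here or for the lists below. By probe, 7 of 13 detected were at least 2-fold lower on the Cd4Cre array, where 9.99% of all detected probes were, and 5 of 14 on the Foxp3Cre array, where 11.7% were, and none was at least 2-fold higher, beside 10.4% and 3.02% of all probes. Of the lower probes, 5 of the 7 and 4 of the 5 were probes of Rela or Nfkb1.

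The lower medians did not hold under every scaling. With median centring they were 0.18 and -0.11 for all members and 0.27 and -0.03 for the inhibitors, Cd4Cre first, where all detected genes had medians of 0.07 and 0.16, and 1 member on each array was then at least 2-fold lower, Nfkbiz with Cd4Cre and Rela with Foxp3Cre. Relb, Nfkbia, Nfkbib, Nfkbie and Bcl3 then lay above 0 with Cd4Cre, and Rel, Nfkb1, Nfkbia and Nfkbib with Foxp3Cre. Rela kept its sign under all alternatives, from -1.25 to -0.62 with Cd4Cre and from -1.63 to -1.05 with Foxp3Cre. Base composition moved with the ratios as well. Detected probes with 33 G or C bases of 60 had median ratios of -0.22 with Cd4Cre and -0.34 with Foxp3Cre, and those with 21 had 0.04 and 0.07. The Rela, Relb, Nfkb2, Nfkbia, Nfkbib and Bcl3 probes held 30 to 33 such bases, and the Rel probe 21. Set against probes of the same composition, Rela's brightest probe read -1.01 and -1.25, Nfkbiz -2.46 and -0.36, and Nfkbib 0.06 and 0.00.

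**Figure D4:**
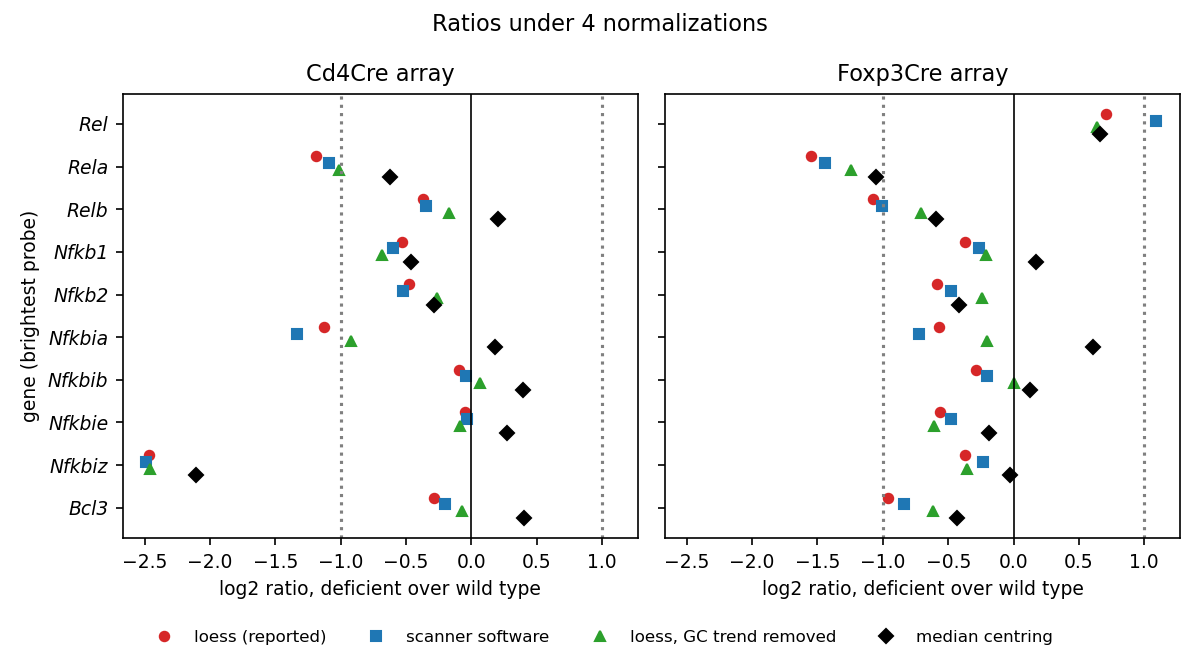
Log2 ratio of deficient over wild-type cells (x axis) for each member's brightest probe (y axis) on the Cd4Cre array (left) and the Foxp3Cre array (right) under 4 ways of scaling the arrays. Circles are the reported loess values, squares the scanner software's ratio, triangles loess values less the median of probes of the same base composition, and diamonds median centring; Nfkbia lies below 0 with loess and at 0.18 and 0.61 with median centring.

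The mean ratio over both arrays was tested against 0 in a limma fit of 14375 genes. The difference between the Cre systems counts as spread, with 1 residual degree of freedom per gene, and limma moderates this spread over all genes. No gene had an adjusted p under 0.05, which is 0% of those tested, and 3254 (22.6%) had an unadjusted p under 0.05, among them 3 of the 9 members tested. Rela averaged -1.37, standard error 0.33 (limma, Benjamini-Hochberg adjusted p = 0.1005), lower on 2 of 2 arrays. Nfkbiz averaged -1.42, standard error 0.49 (limma adjusted p = 0.151), and Nfkbia -0.85, standard error 0.34 (limma adjusted p = 0.196). The other 6 members had adjusted p from 0.263 to 0.765. Rel was not tested, since it was dim on the Cd4Cre array.

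Promoter windows of RefSeq (GRCm38.p6, 250 bases before to 50 after a gene's start) were matched by symbol for 7 of the 10 members and searched for the kappaB consensus, the 10-base motif bound by NF-kappaB dimers, on both strands. The upstream 250 bases are shown for Nfkbia and Rel, which hold a match, and for Rela, which was at least 2-fold lower on both arrays and holds none, 5′ to 3′ on the gene's strand, with matched bases in capitals.
Nfkbia, chr12:55492648-55492897, minus strand: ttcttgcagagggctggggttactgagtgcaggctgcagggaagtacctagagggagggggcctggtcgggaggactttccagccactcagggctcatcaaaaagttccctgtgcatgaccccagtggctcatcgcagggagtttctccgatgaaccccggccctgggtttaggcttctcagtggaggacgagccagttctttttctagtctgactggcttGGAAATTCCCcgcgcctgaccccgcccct
Rel, chr11:23770970-23771219, minus strand: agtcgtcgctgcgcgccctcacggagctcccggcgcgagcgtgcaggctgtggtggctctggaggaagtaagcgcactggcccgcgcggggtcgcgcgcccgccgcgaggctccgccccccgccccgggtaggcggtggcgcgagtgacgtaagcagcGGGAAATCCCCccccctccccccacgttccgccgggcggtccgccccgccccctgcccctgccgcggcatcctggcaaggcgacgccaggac
Rela, chr19:5637291-5637540, plus strand: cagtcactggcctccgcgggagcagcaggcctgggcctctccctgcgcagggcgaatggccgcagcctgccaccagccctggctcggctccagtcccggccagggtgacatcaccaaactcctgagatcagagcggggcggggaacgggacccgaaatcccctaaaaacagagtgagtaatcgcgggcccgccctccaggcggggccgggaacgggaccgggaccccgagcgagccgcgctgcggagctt
Of the 7 genes, 5 held a match in at least 1 window: Rel, Nfkbia, Nfkbie, Bcl3 and Nfkb2, the last in each of its 3 windows. Some Nfkb2 windows overlap and share a match. By window, 7 of 9 member windows held a match, with that shared site counted more than once. Rela and Nfkbib held none. Over all 32851 windows of the same length, 4.51% held a match. In Rel, a pair of overlapping matches makes up the run of capitals, and in Nfkbia the match starts 29 bases before the gene's start. A match says only that the letters are present.

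Around the members, 75 other genes of the pathway were read, grouped by role. Each list count stands beside the share of all detected genes past 2-fold. On the Cd4Cre array 10.6% were lower and 11.4% higher, and on the Foxp3Cre array 11.5% and 2.94%. Counts in lists this small are not read as results where they lie near these shares. For the other scalings no such shares are given, here or for the members. Receptors that feed into it split on the Cd4Cre array, where 5 of 13 detected were past 2-fold up and 3 past 2-fold down (median 0.29), and on the Foxp3Cre array 1 of 14 was past 2-fold down and none past 2-fold up (median 0.38). With median centring the Foxp3Cre counts were 0 down and 3 up (median 0.83). By the scanner software's ratio they were 0 down and 2 up. The Foxp3Cre median was above 0 with loess and with median centring. Cd27, a costimulatory receptor, was the lowest on both, at -2.30 and -1.02. Il1r1, the interleukin 1 receptor, was the highest on the Cd4Cre array at 2.83 and read 0.82 on the Foxp3Cre array. Tlr4, the endotoxin receptor, was the highest on the Foxp3Cre array at 0.87 (error 0.44), where the wild-type channel was not well above background. This ratio sets the deficient signal of 8.55 against the probe's own dim wild-type signal of 7.68, and is open to dye bias. Under the alternatives it ran from 0.41 to 1.61. A second Tlr4 probe read -0.06 there.

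Of 14 adaptors between receptor and kinase, 10 lay below 0 with Cd4Cre and 12 with Foxp3Cre. The median of all detected genes was itself below 0, at -0.05 and -0.08. Of these 14, 5 were at least 2-fold lower on the Cd4Cre array (median -0.52) and 3 on the Foxp3Cre array (median -0.85), and none was past 2-fold up on either. With median centring 1 was lower and 2 higher past 2-fold on the Cd4Cre array (median -0.15), and none was past 2-fold either way on the Foxp3Cre array (median -0.14). Prkcq, the gene of PKC-theta, a kinase that relays antigen receptor signals to the pathway, read -1.19 and -1.25. With median centring these were -0.58 and -0.48, and other probes of the gene came as close to 0 as -0.50 and -0.90. Bcl10, an adaptor of antigen receptor signalling, was the highest on the Foxp3Cre array (0.25, and 0.16 on the Cd4Cre array, with another probe at -1.07 and -0.72), Traf3, which restrains the noncanonical pathway, the lowest on the Cd4Cre array (-1.50, and -0.97), and the adaptor Myd88 the highest there (0.64, and -0.41 on the Foxp3Cre array).

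Of 11 kinases and kinase partners, 2 were at least 2-fold lower on the Cd4Cre array (median -0.51) and 4 on the Foxp3Cre array (median 0.03). With median centring 2 and 1 were, and Ikbkb was then within 2-fold on the Foxp3Cre array (-0.84). The IkB kinase subunits differed among themselves. Ikbkb, the gene of the catalytic subunit of the classical pathway, read -1.52 and -1.13, with signals of 11.73 in deficient and 13.25 in wild-type cells on the Cd4Cre array and 11.21 in deficient and 12.34 in wild-type cells on the Foxp3Cre array. Chuk, the gene of the other catalytic subunit, read -0.23 and 0.55, and Ikbkg, the regulatory subunit NEMO, -0.51 and 0.03, with other probes as high as 0.59 and 0.61. The related kinase gene Ikbke was lowest on both arrays, at -2.24 and -1.86, and Tab2, a partner of the kinase TAK1, was the highest on the Cd4Cre array at 0.05 (-0.36 on the Foxp3Cre array).

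Negative regulators outside the IkB family had medians of -0.67 and -0.52, with 3 of 12 at least 2-fold lower on the Cd4Cre array, 2 on the Foxp3Cre array, and none at least 2-fold higher. The lower counts were 2 and 1 with median centring, and 6 and 2 by the scanner software's ratio. Tnfaip3, the gene of the ubiquitin-editing enzyme A20 and an NF-kappaB target, read -4.02 on the Cd4Cre array, with signals of 13.56 in deficient and 17.58 in wild-type cells. On the Foxp3Cre array it read -0.86, with 13.05 in deficient and 13.91 in wild-type cells. Nlrc3 read -1.52 and -1.23, and the ubiquitin ligase gene Itch was the highest on both (0.23 and 0.47), although another of its probes read -1.10 and -1.29. Nfkbid, which encodes the atypical nuclear IkB protein IkBNS, was lower on both arrays: 11.55 in deficient and 14.22 in wild-type cells on the Cd4Cre array (-2.67), and 9.42 in deficient and 10.61 in wild-type cells on the Foxp3Cre array (-1.19). Nfkbil1 read 1.38 and -0.40.

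With loess, the listed NF-kappaB targets did not share a direction. Targets placed in other lists, such as Tnfaip3, are not counted here. Of 21 detected, 5 were past 2-fold down and 5 past 2-fold up on the Cd4Cre array (median -0.21), and 3 and 2 on the Foxp3Cre array (median -0.14). With median centring the medians were 0.05 and 0.40, where those of all detected genes were 0.07 and 0.16. Then 1 was past 2-fold down and 8 up on the Cd4Cre array, and 1 down and 6 up on the Foxp3Cre array. The chemokine gene Ccl3 (2.62 and 1.01) and the early response gene Ier3 (1.63 and 1.06) were at least 2-fold higher on both, and the peptide transporter gene Tap1 (-1.49 and -2.38) and Junb (-1.62 and -1.05) at least 2-fold lower on both. Junb read -0.05 and 0.24 with median centring. Ccl5, a chemokine gene also made by cytotoxic lymphocytes, was the highest on the Cd4Cre array, at 2.92, and read 0.01 on the Foxp3Cre array. The NK cell and myeloid marker medians given above were 3.12 and 3.62 with Cd4Cre, and 0.68 and 0.93 with Foxp3Cre, and their part in Ccl5 and Ccl3 was not tested.

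Of the 75 genes together, 19 of 73 detected were past 2-fold down and 11 past 2-fold up on the Cd4Cre array, and 14 and 2 of 74 on the Foxp3Cre array, beside the 10.6%, 11.4%, 11.5% and 2.94% of all detected genes. With median centring these counts were 9 lower and 16 higher, and 4 lower and 9 higher, so the larger count depended on the scaling. The median of all detected genes moved too, from -0.05 to 0.07 on the Cd4Cre array and from -0.08 to 0.16 on the Foxp3Cre array. No share of all genes stands beside the centred counts, so they are not read as a result about the pathway. On both arrays 9 of 73 were past 2-fold down and 2 past 2-fold up, where 4.56% and 1.34% of all genes were. The limma fit called 0 of the 73 at an adjusted p under 0.05 and held 30 at an unadjusted p under 0.05, where 22.6% of all genes tested were.

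**Figure D5:**
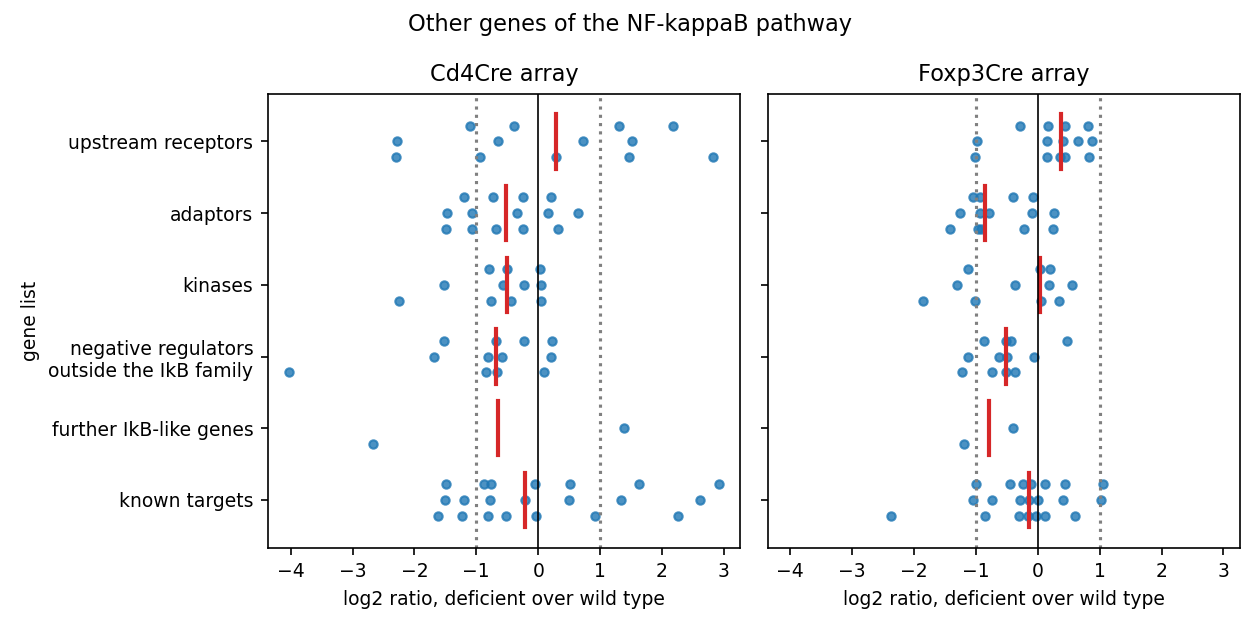
Log2 ratio of deficient over wild-type cells (x axis) for the detected genes of 6 lists of the NF-kappaB pathway (y axis), on the Cd4Cre array (left) and the Foxp3Cre array (right). Each point is a gene's brightest probe, the vertical offset within a list only separates points, red bars are list medians, and dotted lines mark 2-fold; the point at -4.02 is Tnfaip3.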

How the data were processed

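The authors deposited, per the file headers, for each spot the mean and local background intensity in both channels, the log10 ratio of Cy5 over Cy3 with its error, and flags, from Agilent Feature Extraction 10.5.1.1 (Cd4Cre array) and 10.7.3.1 (Foxp3Cre array), where the submitters' processing notes name 10.5.1. In the authors' deposited value table each log10 ratio was the same (largest difference 0, median 0 on each array), so its scale and direction are known. No label names a Cre. The array whose labels name the Foxp3-GFP reporter was taken as the Cd4Cre array, since the design text names that reporter. The other array was taken as the Foxp3Cre array.

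Intensities were corrected with normexp (offset 50) and normalized by loess within each array, giving control spots a weight of 0 (limma 3.58.1, R 4.3.3); the 137 and 155 spots marked as outliers were left out. Signals are those after Aquantile scaling of both arrays. Spots of a probe were averaged, and the probe brightest over both arrays stood for its gene, which was detected if that probe exceeded background, by the software's flag, in 1 channel or both. Genes outside the members were named by RefSeq accession (24844 of 41174 probes), symbol (6045) or synonym (1810), and 8475 probes kept the file's name. The limma fit (intercept only, Benjamini-Hochberg adjustment over all genes) was also run on simulated ratios, with independent noise and the same change on both arrays. These held no dye bias and no difference between Cre systems, so they do not check the fit for either. Nothing says that the arrays are replicates of each other. The p-values set the mean of 2 ratios against a spread between the arrays that limma moderates over all genes. No replicate within a Cre system enters them.

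Named were all members, the highest and lowest gene of each pathway list on each array, list genes at least 2-fold the same way on both, and Bcl11b, Foxp3, Il2ra and Ctla4; Ikbkg was added after its values were seen, and 1 gene that this rule names is not reported here. Genes of like pattern were not sought, since each gene has 2 ratios. The members and lists were chosen with earlier results of these data known. Alternatives were no background subtraction, offset 10, median centring, the scanner software's ratio, the mean over probes, signal in both channels, no filter on dim probes, marked spots kept, an intensity trend in limma and, added after the data were seen, removal of the trend with GC content.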

Additional observations from a re-analysis of the deposited data

Results flagged for a closer look

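No member had ratios of opposite sign on the arrays where both were measured. Of the other pathway genes named, 5 lay above 0 on 1 array and below 0 on the other, with 1 array each, and the differences were not tested. Nfkbil1 read 1.38 with Cd4Cre and -0.40 with Foxp3Cre, a difference of 1.78. Myd88 read 0.64 and -0.41, a difference of 1.05. Chuk read -0.23 and 0.55, a difference of -0.78, and Tab2 0.05 and -0.36, a difference of 0.42. Ikbkg read -0.51 and 0.03, a difference of -0.53. For Myd88 and Tab2 the sign on the Foxp3Cre array turned with median centring, to 0.21 and 0.025. A second Chuk probe read -0.21 on the Foxp3Cre array, and the Tab2 probes spread from -0.03 to 1.65 on the Cd4Cre array.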

How the results depend on the processing

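Median centring changed most: members at least 2-fold lower went to 1 with Cd4Cre and 1 with Foxp3Cre, their medians to 0.18 and -0.11, the other pathway genes at least 2-fold lower to 9 and 4, those at least 2-fold higher on the Foxp3Cre array to 9, and genes called by limma to 311, no member among them. It turned the sign of Nfkbia (0.18 on the Cd4Cre array, mean 0.39), of the means of Nfkbib (0.26) and Nfkbie (0.041), and of Junb on the Foxp3Cre array (0.24). Removing the GC trend gave member medians of -0.27 and -0.30, 1 member at least 2-fold lower and 9 other genes at least 2-fold lower on the Foxp3Cre array, and a mean of 0.031 for Nfkbib. The scanner software's ratio put 1 member and 5 other genes at least 2-fold higher on the Foxp3Cre array, and no background subtraction put 0 other genes there. Requiring signal in both channels gave 39 limma calls, again with no member. The cause was not tested. No member was called under any alternative. No paired analysis was possible because each Cre system has 1 array, and leaving out an array leaves the limma fit no residual degree of freedom. Low signal limits Rel.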

Other observations

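The wild-type pools of the arrays differed more than the deficient pools did in Tnfaip3, Nfkbid, Nfkbiz and Nfkbia, and less in the other members detected on both arrays. Tnfaip3 and Nfkbid had been named for their low ratios. Tnfaip3 had signals of 13.56 and 13.05 in the deficient pools of the Cd4Cre and Foxp3Cre arrays, and 17.58 and 13.91 in the wild-type pools. Its wild-type difference of 3.67 was matched or exceeded by 0.0696% of 14375 genes. For Nfkbiz the deficient pools differed by -0.23 and the wild-type pools by 1.86, which 1.54% of genes matched or exceeded. Nfkbid differed by 2.13 between the deficient pools and by 3.62 between the wild-type pools (0.0835% of genes). For Nfkbia these differences were 0.44 and 1.001. The other way, they were 0.99 and 0.62 for Rela, 1.28 and 0.57 for Relb, and 1.48 and 0.81 for Bcl3. They were 0.70 and 0.19 for Nfkbie, 1.08 and 0.89 for Nfkbib, 1.20 and 1.09 for Nfkb2, and -2.23 and -2.08 for Nfkb1. Sort, slide, scan and software differed between the arrays too and cannot be told apart from the pools. Each signal is computed from the probe's mean brightness and its ratio, so a low ratio and a high wild-type signal are not separate observations. Why the pools differed in these genes was not tested.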
